A study of Mus musculus with 25 samples.

Results

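The knockout effect of miR-302 in anterior neural tissue was compared between mouse embryos at embryonic day 9.5 (E9.5) and at E8.5. The measure was the interaction, that is the difference of KO minus WT at E9.5 less the difference of KO minus WT at E8.5, in log2 signal. It rests on 14 of the 25 arrays of the series, 1 embryo to an array. These were miR-302 KO (n = 4) and WT embryos (n = 4) at E9.5 and miR-302 KO (n = 3) and WT embryos (n = 3) at E8.5. All embryos were of strain B6 per the labels, the tissue was anterior neural tissue in every one, and the design text states that replicates were independent embryos. The sources used here do not say how the knockout allele was made. A positive interaction means that the KO stood higher against WT at E9.5 than it did at E8.5.

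MicroRNAs pair with messenger RNAs mainly through their seed, a short stretch near the 5′ end, and lower the stability and translation of the paired transcripts. The miR-302 cluster is expressed in pluripotent cells and in the early embryo and falls silent as tissues differentiate. In the stages compared here the neural tube closes, the anterior neural plate is divided into forebrain, midbrain and hindbrain, and the first neurons leave a pool of progenitors that is held back by Notch signalling and its Hes repressors. The isthmus, the border between midbrain and hindbrain, is a signalling centre that secretes Wnt and FGF ligands.

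The 3p strands of the deleted cluster are shown because they carry the seeds of the microRNAs named in the KO label. They are given 5′ to 3′ from RefSeq (build GRCm38.p6, plus strand of chromosome 3), with bases 2 to 8, the seed, in capitals, and 3 of the 4 members had an entry. The positions are chr3:127545275-127545297 for miR-302b, chr3:127545406-127545427 for miR-302c and chr3:127545665-127545687 for miR-302d.
mmu-miR-302b-3p: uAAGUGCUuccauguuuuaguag
mmu-miR-302c-3p: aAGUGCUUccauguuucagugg
mmu-miR-302d-3p: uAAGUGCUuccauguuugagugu
The entries of miR-302b and miR-302d share the seed AAGUGCU. The listed sequence of miR-302c begins 1 base further in, which gives it the seed AGUGCUU.

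The array has no probe for these microRNAs. Their host gene Larp7 was above background on 0 of 25 arrays, with 0.183 the lowest detection p, so the KO label had no check in these data. Among genes taken as markers of anterior neural tissue, Sox2, Zic1, Zic2, Otx2, Pou3f1 and Cdh2 were detected on 14 of 14 arrays, Lhx2, Sox1 and Six3 on 5 to 6, and Sox3 on 1 and Hesx1 on 0. Median raw signals were 222 to 262 at E9.5 and 110 to 148 at E8.5. All E9.5 arrays were on plate 4. At E8.5, KO replicates 2 and 3 were on plate 3, and KO replicate 1 and the WT arrays were on plate 2. Plate 3 held no WT array, so for KO replicates 2 and 3 the E8.5 KO effect cannot be told apart from plate. The same holds for their part in the interaction. Each of the 4 groups held 1 array with Eif2s3y, a Y-linked gene, above Xist.

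The KO effect differed between the stages for 1038 of 10261 genes tested (10.1%), with 444 interactions positive (4.33%) and 594 negative (5.79%), and 2761 genes had an unadjusted p under 0.05 (limma, adjusted p under 0.05 by the Benjamini-Hochberg method). These genes were put in classes by the tests at each stage in the same fit. At E9.5, 233 genes differed between KO and WT (2.27%), 160 of them higher in KO (1.56%) and 73 lower (0.711%). At E8.5, 574 did (5.59%), 326 higher (3.18%) and 248 lower (2.42%). The arrays of KO and WT did not overlap for 14.3% of all genes at E9.5 and 28.6% at E8.5. Among the genes with an interaction, 112 passed at E9.5 and not at E8.5, called appeared here (1.09% of genes tested). Another 373 passed at E8.5 and not at E9.5, called vanished (3.64%). In 14 genes both stages passed with opposite signs (0.136%), and in 1, Fgf15, both passed with the same sign (0.00975%). The other 538 genes passed at neither stage (5.24%). A stage that did not pass is not shown to be without an effect. Over all 10261 genes, 5448 interactions were positive and 4813 negative, whether or not they passed. Counts of passing genes in the groups below stand beside shares over all genes of 4.33% positive and 5.79% negative. The genes nearest the threshold were Zfp334 at 0.72 and Pole3 at -0.61 inside it (adjusted p = 0.0499 for both), and Coro1c at 0.58 and St8sia4 at -0.93 outside it (adjusted p = 0.05 for both). Across all genes the KO effects at the 2 stages, which share no arrays, had a Pearson correlation of -0.17 over 10261 genes, which are not independent replicates.

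**Figure D1:**
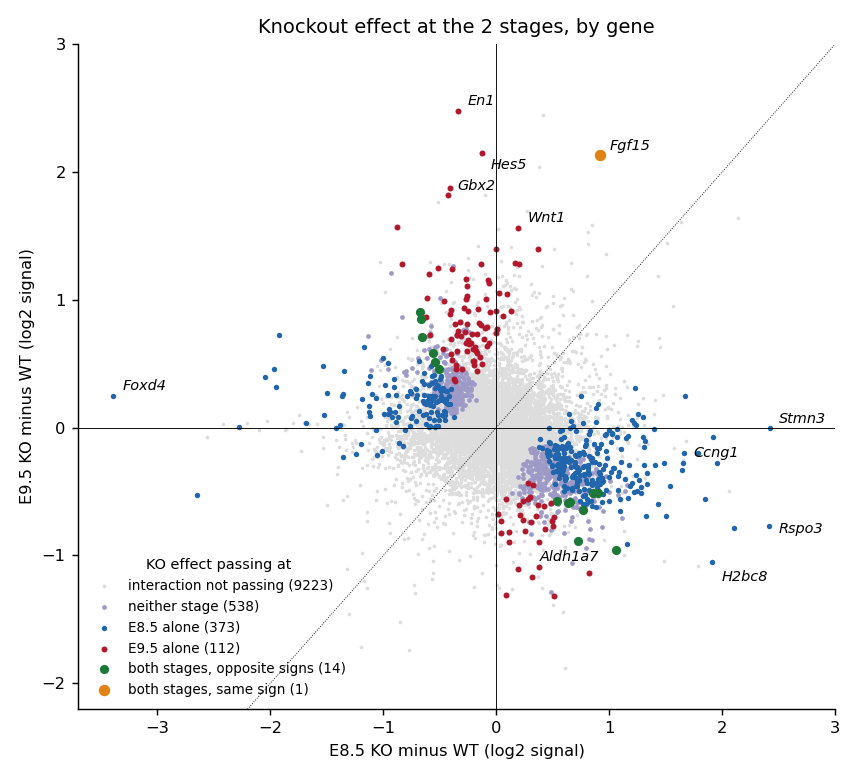
KO minus WT at E9.5 (vertical axis, log2 signal) against KO minus WT at E8.5 (horizontal axis, log2 signal) for 10261 genes, 1 point a gene, coloured by the stage at which the KO effect passed among the genes with an interaction. The dotted line marks equal effects; En1, Gbx2, Wnt1 and Hes5 lie high with little effect at E8.5, Rspo3, Stmn3 and Ccng1 lie to the right, Foxd4 lies far to the left and Fgf15 is high at both stages.

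The first principal component of the 14 arrays held 49.7% of the variance and separated the stages. The second held 12.1% and set KO apart from WT in opposite directions, with scores of 3.1 to 19.6 for E9.5 KO and -19.8 to 0.6 for E9.5 WT arrays, and -30.9 to -8.3 for E8.5 KO and 11 to 21.6 for E8.5 WT arrays. KO and WT scores did not overlap at either stage. KO replicate 1 at E8.5, on the plate of the WT arrays, had -8.3, between the WT arrays and the KO arrays of plate 3.

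**Figure D2:**
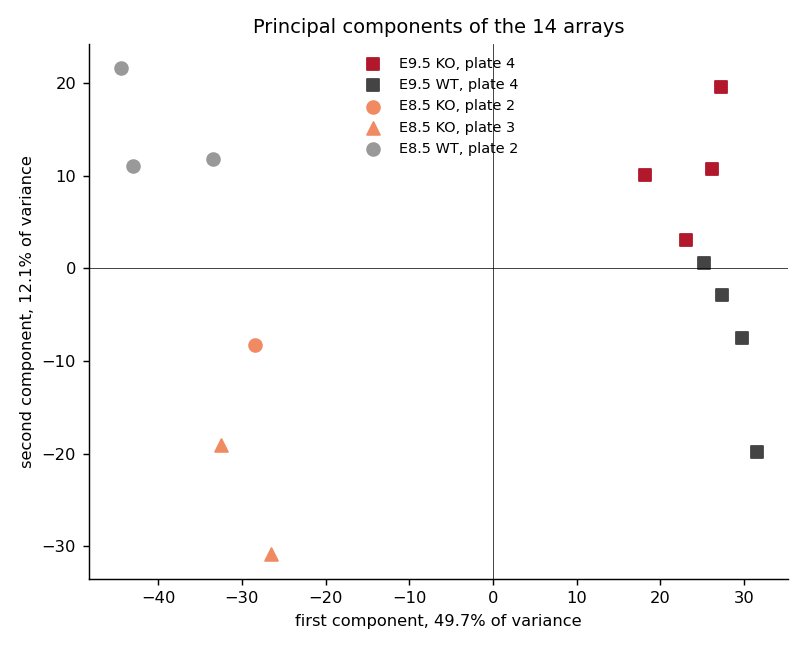
Scores of the 14 arrays on the first component (horizontal axis, 49.7% of variance) and the second component (vertical axis, 12.1% of variance), 1 point an array, coloured by group and shaped by plate. E9.5 arrays lie right and E8.5 arrays left; KO lies above WT at E9.5 and below WT at E8.5.

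The interaction equals the change of KO tissue between the stages less the change of WT tissue. In 233 of the 444 genes with a positive interaction the change between stages passed in WT alone, in 111 in KO alone, in 68 in both with the same direction and in 20 in both with opposite directions. For the 594 negative ones these counts were 332, 142, 68 and 40, and for all 10261 genes 2119, 1329, 2119 and 60. Among all genes, the KO change passed in 3508 (34.2%) and the WT change in 4298 (41.9%). The change was larger in size in WT than in KO for 308 of the 444 and 413 of the 594, against 5734 of all 10261. In the vanished genes with a negative interaction the median change was -0.15 in KO and 0.89 in WT tissue, and in the appeared genes with a positive one it was 0.23 in KO and -0.72 in WT tissue. Stage and plate cannot be told apart in these changes. In bulk tissue, fewer cells of a type and less RNA per cell cannot be told apart either.

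Among the genes whose KO effect appeared, 81 had a positive interaction, and patterning genes of the midbrain and the isthmus were among the largest. En1, a homeobox gene that specifies midbrain and anterior hindbrain, had log2 signals of 9.51, 9.58, 7.58 and 8.41 in E9.5 KO embryos and 6.57, 6.73, 5.63 and 6.22 in E9.5 WT embryos, and of 9.64, 8.46 and 9.45 in E8.5 KO embryos and 9.19, 9.67 and 9.70 in E8.5 WT embryos. All E9.5 KO arrays lay above all E9.5 WT arrays, with KO replicate 3 lowest, while the E8.5 groups overlapped. The interaction of En1 was 2.81 (SE 0.55, adjusted p = 0.00644): KO was 5.57-fold higher at E9.5, and KO minus WT was -0.34 (adjusted p = 0.673) at E8.5. The change of En1 between the stages was -0.42 in KO tissue (adjusted p = 0.431) and -3.23 in WT tissue (adjusted p = 2.58e-06). Gbx2, a homeobox gene of the anterior hindbrain that sets the position of the isthmus, had log2 signals of 10.45, 10.37, 10.30 and 10.36 in E9.5 KO embryos and 8.88, 8.49, 8.56 and 8.29 in E9.5 WT embryos, and of 11.03, 11.14 and 11.51 in E8.5 KO embryos and 11.76, 11.21 and 11.97 in E8.5 WT embryos. The E9.5 groups were apart with no overlap and the E8.5 groups overlapped. Its interaction was 2.24 (SE 0.26, adjusted p = 0.000459), with 3.52-fold more signal in KO at E9.5.

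Wnt1, the ligand expressed at the midbrain border, had log2 signals of 8.0, 8.41, 8.40 and 7.76 in E9.5 KO embryos and 6.74, 6.58, 6.57 and 6.43 in E9.5 WT embryos, and of 8.59, 8.87 and 9.22 in E8.5 KO embryos and 8.61, 8.53 and 8.96 in E8.5 WT embryos. KO and WT were apart at E9.5 and overlapped at E8.5. The interaction was 1.37 (SE 0.27, adjusted p = 0.00652), with a KO effect of 1.56 at E9.5 and 0.20 (adjusted p = 0.601) at E8.5. Of 19 midbrain and isthmus genes tested, 5 had a positive interaction and 1 a negative one, against 4.33% and 5.79% of all genes. Their median was 0.30 against 0.04 over all genes. The median was 0.099 with the authors' processed values and 0.17 with plate as a covariate. The others that passed were Fgf15, the zinc finger gene Sall1 at 0.82 (adjusted p = 0.0364) and Pou4f1, a transcription factor of midbrain and sensory neurons, at -0.93 (adjusted p = 0.0345). A second Sall1 probe gave 1.00 and did not pass. En2, the paralogue of En1, was 5.45-fold higher in KO at E9.5, but its interaction was 2.04 (SE 0.79, adjusted p = 0.101), and its log2 signals of 11.44, 10.18 and 11.35 in E8.5 KO and 10.49, 11.12 and 10.13 in E8.5 WT embryos overlapped. Fgf8, the ligand of the isthmus, was at -0.34 (adjusted p = 0.461) and Otx2, a homeobox gene of forebrain and midbrain, at 0.30 (adjusted p = 0.558). Gbx2 and Wnt1 kept their calls with plate as a covariate and within plates (2.44 and 1.67), whereas En1 (2.36, adjusted p = 0.0706 and 0.0886) did not. Both plate settings take the E8.5 KO effect from KO replicate 1 alone. Without E8.5 KO replicate 2, 3 of the 19 had a positive call. The call ended for Sall1 when any 1 of 9 arrays was left out and for Pou4f1 when any 1 of 9 arrays was left out. Calls of Sall1 and Pou4f1 ended both with plate as a covariate and within plates (adjusted p = 0.0556 and 0.151 in the covariate fit).

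**Figure D3:**
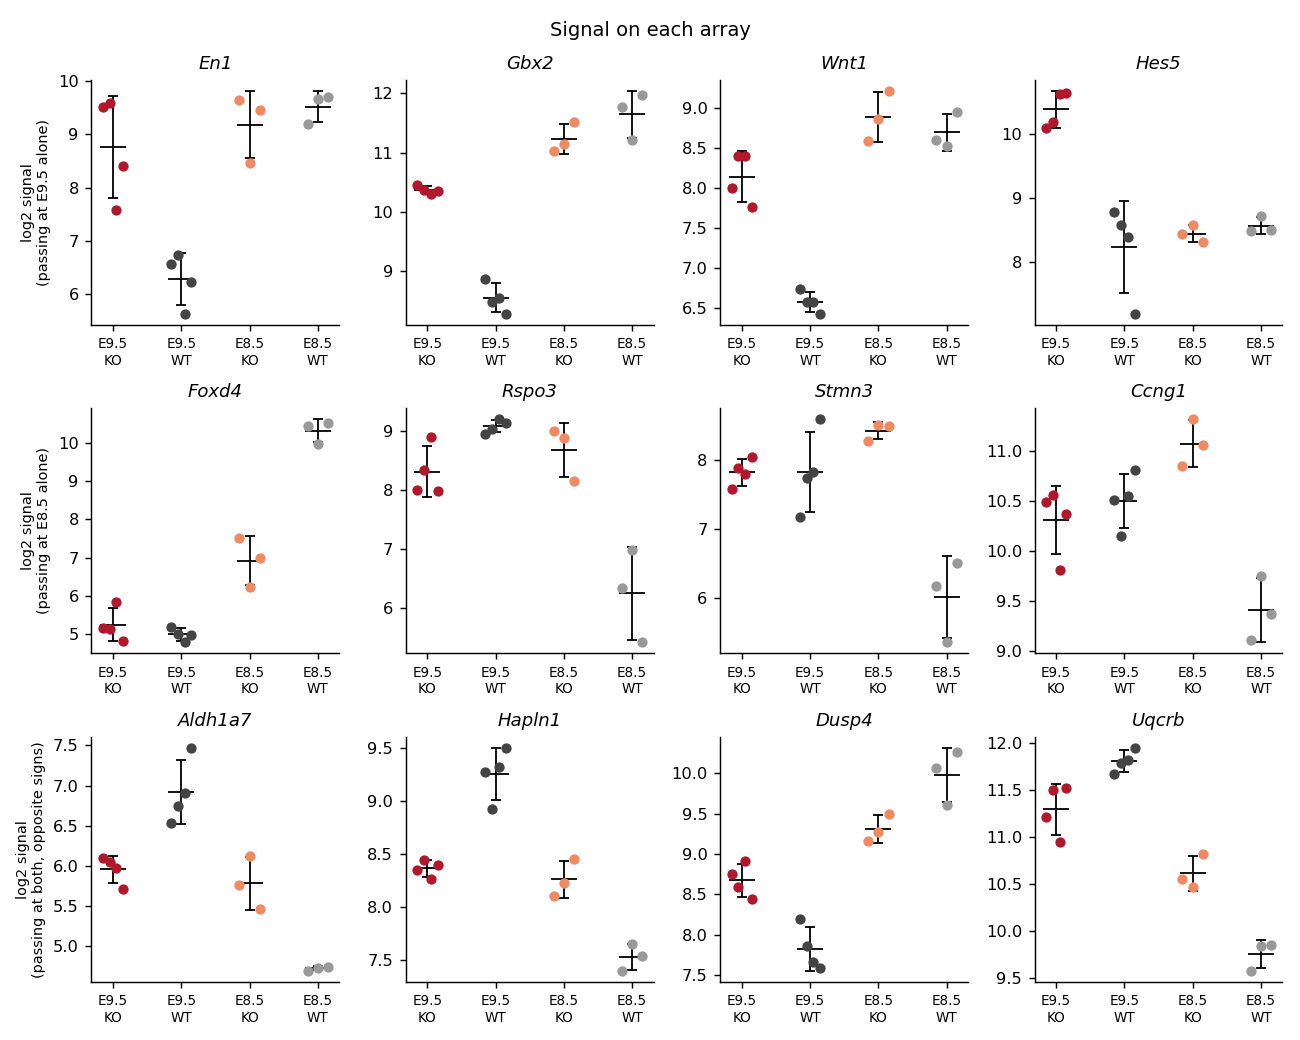
Log2 signal (vertical axes) of 12 genes on each array in E9.5 KO, E9.5 WT, E8.5 KO and E8.5 WT embryos (left to right), 1 point an array, with the mean (bar) and SD (whiskers). En1, Gbx2, Wnt1 and Hes5 (top) have groups apart at E9.5 alone; Foxd4, Rspo3, Stmn3 and Ccng1 (middle) have means far apart at E8.5; Aldh1a7, Hapln1, Dusp4 and Uqcrb (bottom) have opposite orders of KO and WT at the 2 stages.

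Notch effectors and progenitor genes formed a further part of the appeared class. Hes5, a transcriptional repressor induced by Notch, had log2 signals of 10.09, 10.19, 10.62 and 10.65 in E9.5 KO embryos and 8.79, 8.58, 8.39 and 7.20 in E9.5 WT embryos, and of 8.44, 8.58 and 8.32 in E8.5 KO embryos and 8.49, 8.73 and 8.5 in E8.5 WT embryos. At E9.5 all KO arrays were above all WT arrays, of which WT replicate 4 was lowest, and at E8.5 the 6 arrays lay between 8.32 and 8.73. The interaction was 2.28 (SE 0.56, adjusted p = 0.0178), and KO was 4.44-fold higher at E9.5. A further Hes5 probe gave 2.13. Hes3, a related repressor of neural progenitors, had log2 signals of 7.40, 7.29, 5.83 and 7.15 in E9.5 KO embryos and 5.38, 5.04, 4.80 and 4.96 in E9.5 WT embryos, and of 6.29, 6.50 and 6.92 in E8.5 KO embryos and 6.18, 7.04 and 7.71 in E8.5 WT embryos. Hes3 was detected on 4 of 4 KO arrays and 0 of 4 WT arrays at E9.5, so KO was at least 2.84-fold higher there, and it was detected on all 6 arrays at E8.5, where the groups overlapped. The interaction was 2.28 (SE 0.50, adjusted p = 0.0109). Dll1, a Notch ligand, was 2.19-fold higher in KO at E9.5 with KO minus WT of -0.07 at E8.5, with an interaction of 1.19 (adjusted p = 0.0348). The call did not hold for Dll1 when any 1 of 7 arrays was left out. In both plate settings the call of Dll1 ended, at a value of 0.99. Those of Hes5 (at 2.29) and Hes3 (at 2.56) ended within plates alone.

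The promoter of Hes5 is shown because the gene is a direct target of Notch through the DNA-binding factor RBPJ in mouse. The RefSeq window of 300 bases around its start (chr4:154960673-154960972, plus strand, GRCm38.p6) holds the RBPJ core GTGGGAA in 2 places, in capitals, counting both strands, beginning 226 bases (opposite strand) and 83 bases (same strand) before the start.
Hes5: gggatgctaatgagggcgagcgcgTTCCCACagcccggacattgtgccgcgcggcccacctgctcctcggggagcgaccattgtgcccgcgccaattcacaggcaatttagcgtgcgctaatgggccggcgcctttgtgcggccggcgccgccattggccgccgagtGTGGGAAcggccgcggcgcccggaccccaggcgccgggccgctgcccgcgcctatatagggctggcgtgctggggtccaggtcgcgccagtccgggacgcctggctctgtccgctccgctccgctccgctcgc
On either strand, 6.38% of 32851 promoter windows hold these letters and 0.256% hold them in 2 or more places. The 2 windows of Dll1 hold none, and Hes3 had no entry. A match is a description of the sequence and no test of the factor.

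Of 22 Notch pathway genes tested, Dll1, Hes3 and Hes5 had a positive interaction, and 0 had a negative one in limma, also at an unadjusted p under 0.05. Of all genes 4.33% passed with a positive value and 5.79% with a negative one. Of the 22 values 18 were positive, against 5448 of all 10261 genes, with a median of 0.29. Hes1 (0.44, adjusted p = 0.347), Notch1 (0.48, adjusted p = 0.364) and the Notch modulator Lfng (0.66, adjusted p = 0.237) did not pass. The list's mean log2 signal was 8.18 to 8.30 on E9.5 KO arrays and 7.61 to 7.81 on E9.5 WT arrays, and 7.48 to 7.65 on E8.5 KO arrays and 7.46 to 7.63 on E8.5 WT arrays. Sox21, a transcription factor of neural progenitors, had log2 signals of 12.22, 12.16, 11.44 and 11.83 in E9.5 KO embryos and 10.35, 10.95, 10.98 and 10.25 in E9.5 WT embryos, and of 11.96, 11.03 and 11.42 in E8.5 KO embryos and 12.31, 12.46 and 12.15 in E8.5 WT embryos. KO lay above WT at E9.5 and below it at E8.5, without overlap at either stage, and the interaction was 2.11 (SE 0.38, adjusted p = 0.00382). Sox2, the progenitor factor that marks neural ectoderm, had log2 signals of 9.17, 8.81, 9.11 and 9.08 in E9.5 KO embryos and 8.37, 7.94, 7.90 and 7.13 in E9.5 WT embryos, and of 7.92, 7.20 and 7.18 in E8.5 KO embryos and 8.29, 8.31 and 8.49 in E8.5 WT embryos. Again the order of KO and WT was opposite at the 2 stages. Its interaction was 2.13 (SE 0.53, adjusted p = 0.0181), although neither stage passed alone (1.21, adjusted p = 0.0719, at E9.5 and -0.93, adjusted p = 0.165, at E8.5), and a second probe, detected on 8 arrays, gave 0.57 and did not pass. Of 31 progenitor genes tested, 25 had positive values (median 0.48), against 5448 of all 10261, and 4 passed, Sox2, Sox21, Hes3 and Hes5. Rfx4 (1.06, adjusted p = 0.087), Sox9 (1.03, adjusted p = 0.138) and Zic2 (1.25, adjusted p = 0.162) did not. With plate as a covariate 2 of the 31 passed, and within plates 0 did (8 with an unadjusted p under 0.05, limma). The call was lost for Sox2 without E8.5 KO replicate 2. Calls of Sox21 and Sox2 ended both with plate as a covariate and within plates (adjusted p = 0.0616 and 0.067 in the covariate fit). With the authors' processed values the medians were 0.15 for the Notch and 0.23 for the progenitor list.

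Of 4 Iroquois homeobox genes tested, which pattern the neural plate, Irx1 and Irx2 were among the appeared genes. Irx1 had log2 signals of 6.97, 7.19, 7.18 and 7.06 in E9.5 KO embryos and 5.77, 5.17, 5.57 and 5.64 in E9.5 WT embryos, and of 6.33, 5.76 and 6.36 in E8.5 KO embryos and 6.93, 6.21 and 7.95 in E8.5 WT embryos. The E9.5 groups were apart and the E8.5 groups overlapped, with an interaction of 2.45 (SE 0.54, adjusted p = 0.0114), and it was above background on 3 of 4 E9.5 WT and 2 of 3 E8.5 KO arrays. Irx2 had an interaction of 1.45 (SE 0.25, adjusted p = 0.0029) with 1.98-fold more signal in KO at E9.5, and Irx3 one of 1.06 (adjusted p = 0.0371) without passing at E9.5 (0.77, adjusted p = 0.0507). Irx5 was at 0.67 (adjusted p = 0.153). Irx1, Irx2 and Irx3 made up the positive calls among 24 forebrain patterning genes, of which 11 had positive values. Nr2e1, a nuclear receptor of forebrain progenitors, at -1.72 (adjusted p = 0.0302) and Dlx1 were the negative ones. Other appeared genes with a positive interaction were follistatin (Fst), an inhibitor of activins, at 1.22 (adjusted p = 0.0165), the repressor Id4 at 1.08 (adjusted p = 0.0311), the cell cycle transcription factor E2f1 at 0.94 (adjusted p = 0.0311), Dpysl5, a cytoskeletal regulator of axons, at 0.76 (adjusted p = 0.0118), and the vesicle protein Syt11 at 1.22 (adjusted p = 0.0404). Id4 was not above background on any E8.5 array. For Syt11, 1 of the 2 other probes gave 0.18 and did not pass. No call remained for Fst without E8.5 WT replicate 1, for Id4 when any 1 of 8 arrays was left out, for E2f1 when any 1 of 5 arrays was left out, for Syt11 when any 1 of 10 arrays was left out, for Irx3 when any 1 of 9 arrays was left out and for Nr2e1 when any 1 of 7 arrays was left out. In both plate settings the calls of Irx3, Fst, Id4 and Syt11 (at 0.77) ended (adjusted p = 0.0524 to 0.289 in the covariate fit), and within plates alone those of Irx1, Nr2e1, E2f1 and Dpysl5 did (adjusted p = 0.0675 to 0.156).

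In the other direction, 31 genes lower in KO at E9.5 had an effect that appeared. Aldh1a3, an enzyme that makes retinoic acid in the eye and the olfactory region, had log2 signals of 6.46, 6.40, 6.29 and 6.84 in E9.5 KO embryos and 8.06, 7.49, 7.47 and 8.26 in E9.5 WT embryos, and of 6.08, 5.27 and 5.41 in E8.5 KO embryos and 4.90, 5.52 and 4.81 in E8.5 WT embryos. The E9.5 groups did not overlap, and at E8.5 the gene was detected on 1 of 3 KO arrays and 0 of 3 WT arrays. KO was 2.5-fold lower at E9.5, and the interaction was -1.83 (SE 0.31, adjusted p = 0.0029), past the threshold with plate as a covariate and within plates too. Of 15 retinoic acid genes Aldh1a3 was the negative call and the receptor Rara the positive one. Rara was detected on 2 of 14 arrays and kept its call in 3 of 14 settings of processing, fit and plate. Crabp2, which binds retinoic acid in the cell, was at -0.90 (adjusted p = 0.0579). The histone gene H2ac8, whose near-identical copies the probe may not separate, was 2.19-fold lower at E9.5 and higher at E8.5 without passing (0.82, adjusted p = 0.112), with an interaction of -1.95 (adjusted p = 0.00857). The others named by size were Tinag, a basement membrane protein, at -1.49 (adjusted p = 0.034), the oocyte gene Ooep at -1.47 (adjusted p = 0.00804), the methyltransferase Inmt at -1.40 (adjusted p = 0.00772) and the peptide hormone gene Rln1 at -1.29 (adjusted p = 0.0434). Inmt was detected on 1 of 4 KO and 4 of 4 WT arrays at E9.5 and on no E8.5 array. Fli1, an endothelial and blood cell transcription factor, was 1.61-fold lower in KO at E9.5 and not above background at E8.5, with an interaction of -0.89 (adjusted p = 0.0219). The call ended for Tinag when any 1 of 8 arrays was left out, for Rln1 when any 1 of 10 arrays was left out, for Fli1 without E8.5 KO replicate 2 or E8.5 WT replicate 3 and for Rara when any 1 of 9 arrays was left out. Calls of H2ac8, Tinag (at -0.74), Ooep, Inmt, Fli1 and Rara ended both with plate as a covariate and within plates (adjusted p = 0.0561 to 0.373 in the covariate fit), and within plates alone that of Rln1 did (adjusted p = 0.0675).

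Of the 373 vanished genes, 132 had a positive interaction, with a median KO effect of -0.64 at E8.5. The forkhead gene Foxd4, expressed in early neural ectoderm, had log2 signals of 5.16, 5.15, 5.85 and 4.83 in E9.5 KO embryos and 5.19, 5.02, 4.80 and 4.99 in E9.5 WT embryos, and of 7.52, 6.25 and 7.0 in E8.5 KO embryos and 10.45, 9.97 and 10.52 in E8.5 WT embryos. At E8.5 the KO arrays lay below the WT arrays without overlap, 10.5-fold lower, and at E9.5 the gene was detected on 1 of 4 KO and 0 of 4 WT arrays. The interaction was 3.64 (SE 0.68, adjusted p = 0.00534), the largest positive one, and is a fitted value with no bound, since the E9.5 levels were near background. Sema4f, a semaphorin of the nervous system, had log2 signals of 5.64, 5.20, 5.59 and 5.04 in E9.5 KO embryos and 5.14, 4.98, 4.83 and 4.91 in E9.5 WT embryos, and of 4.81, 6.43 and 5.61 in E8.5 KO embryos and 8.13, 7.13 and 7.73 in E8.5 WT embryos. Its groups were apart at E8.5 (4.13-fold lower in KO, which was above background on 1 of 3 arrays) and overlapped near background at E9.5, with an interaction of 2.44 (SE 0.51, adjusted p = 0.00955). Vstm2l, an immunoglobulin domain protein, was 3.91-fold lower in KO at E8.5 with KO minus WT of 0.46 at E9.5, with an interaction of 2.42 (adjusted p = 0.00797). Sema4f and Vstm2l passed in both plate settings, and Foxd4 with plate as a covariate (3.04, adjusted p = 0.0466) but not within plates (adjusted p = 0.0879).

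Egr2, a zinc finger gene that marks segments of the hindbrain, had log2 signals of 5.32, 5.01, 6.38 and 5.75 in E9.5 KO embryos and 5.90, 5.01, 4.90 and 4.72 in E9.5 WT embryos, and of 7.94, 7.64 and 7.78 in E8.5 KO embryos and 9.54, 8.89 and 9.52 in E8.5 WT embryos. The E8.5 KO arrays were all below the WT arrays and the E9.5 groups overlapped, and the interaction was 2.01 (SE 0.44, adjusted p = 0.0108). Egr2 was the only one of 19 hindbrain and Hox genes tested to pass. The Wnt modulator Dact2 was 4.84-fold lower in KO at E8.5, where 1 of 3 KO arrays was above background, and above background in neither group at E9.5, with an interaction of 2.28 (adjusted p = 0.0165). The haem oxygenase Hmox1 had log2 signals of 5.81, 6.57, 7.12 and 6.36 in E9.5 KO embryos and 6.16, 6.22, 6.02 and 6.18 in E9.5 WT embryos, and of 5.23, 5.02 and 4.78 in E8.5 KO embryos and 7.44, 6.10 and 7.33 in E8.5 WT embryos. It was above background on no E8.5 KO array, where KO was at least 2.28-fold lower, and on all E9.5 arrays, with an interaction of 2.27 (SE 0.51, adjusted p = 0.0118). The Wnt receptor Fzd7 was 1.57-fold lower in KO at E8.5 (interaction 1.02, adjusted p = 0.0173) and the chromatin gene Arid4b 2.37-fold lower (interaction 1.04, adjusted p = 0.0433). The call did not hold for Fzd7 without E8.5 WT replicate 1 and for Arid4b when any 1 of 9 arrays was left out. In both plate settings the calls of Egr2 (at 1.86), Hmox1 (at 2.05), Fzd7 (at 1.06) and Arid4b (at 0.91) ended, and within plates that of Dact2 (at 2.68). By cyclic loess and with the authors' processed values the calls of Dact2, Hmox1 and Arid4b also ended, and with a replicate block that of Dact2. In 15 settings of processing, fit and plate, the call held in 11 for Dact2 and Hmox1 and in 7 for Arid4b. The smallest values in any alternative were 0.55 for Dact2, 0.54 for Hmox1 and 0.20 for Arid4b.

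The other 241 vanished genes had a negative interaction, with a median KO effect of 0.78 at E8.5 and -0.29 at E9.5. Rspo3, an agonist that amplifies Wnt signalling, had log2 signals of 8.0, 8.33, 8.90 and 7.98 in E9.5 KO embryos and 8.95, 9.03, 9.19 and 9.13 in E9.5 WT embryos, and of 8.99, 8.88 and 8.15 in E8.5 KO embryos and 6.34, 6.99 and 5.43 in E8.5 WT embryos. At E8.5 KO lay above WT without overlap (5.34-fold higher, with 2 of 3 WT arrays above background), and at E9.5 KO lay below WT without overlap (-0.77, adjusted p = 0.162). Its interaction of -3.19 (SE 0.44, adjusted p = 0.00119) was the largest negative one and passed in all 29 alternatives. Stmn3, a stathmin that regulates neuronal microtubules, had log2 signals of 7.58, 7.89, 7.80 and 8.05 in E9.5 KO embryos and 7.18, 7.74, 7.83 and 8.60 in E9.5 WT embryos, and of 8.29, 8.52 and 8.5 in E8.5 KO embryos and 6.17, 5.35 and 6.51 in E8.5 WT embryos. E8.5 KO signals were 5.37-fold above E8.5 WT (above background on 2 of 3 arrays), without overlap, and KO minus WT at E9.5 was -0.01 (adjusted p = 0.996). The interaction was -2.43 (SE 0.45, adjusted p = 0.00529). Ccng1, a cyclin induced by p53, had log2 signals of 10.49, 10.56, 9.81 and 10.37 in E9.5 KO embryos and 10.51, 10.15, 10.55 and 10.81 in E9.5 WT embryos, and of 10.85, 11.32 and 11.06 in E8.5 KO embryos and 9.11, 9.75 and 9.37 in E8.5 WT embryos. All E8.5 KO arrays were above all E8.5 WT arrays (3.16-fold higher) and the E9.5 groups overlapped. The interaction was -1.86 (SE 0.29, adjusted p = 0.00237), it passed in both plate settings, and the gene's 2 other probes gave -1.49 and -1.92.

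Genes of the neuronal lineage were also among the vanished genes. Dlx1, a homeobox gene of forebrain neurons, had log2 signals of 9.04, 8.97, 9.23 and 8.89 in E9.5 KO embryos and 9.21, 9.67, 9.41 and 8.63 in E9.5 WT embryos, and of 7.69, 7.95 and 6.90 in E8.5 KO embryos and 5.38, 6.74 and 5.07 in E8.5 WT embryos. KO was 3.44-fold higher at E8.5, where 1 of 3 WT arrays was above background, without overlap, and KO minus WT was -0.20 at E9.5, where the groups overlapped. The interaction was -1.98 (SE 0.56, adjusted p = 0.032), and it was lost in both plate settings. Elavl2, a neuronal RNA-binding protein, had log2 signals of 11.22, 11.25, 10.99 and 11.13 in E9.5 KO embryos and 11.28, 11.37, 11.45 and 11.67 in E9.5 WT embryos, and of 11.63, 11.70 and 11.67 in E8.5 KO embryos and 10.24, 10.75 and 10.49 in E8.5 WT embryos. It was 2.25-fold higher in KO at E8.5, with an interaction of -1.47 (SE 0.27, adjusted p = 0.00508) and -1.66 on a second probe. Neurod4, a proneural transcription factor, was at least 1.45-fold higher in KO at E8.5, where it was detected on 2 of 3 KO and 0 of 3 WT arrays, and its interaction was -1.42 (adjusted p = 0.0448). Of 39 neuronal genes, Stmn3, Elavl2, Scg5 and Pou4f1 had a negative interaction and Crmp1, Dpysl5 and Syt11 a positive one, so the list moved in both directions (median 0.24). Of 14 proneural factors Neurod4 alone passed. Its call held in 8 of 15 settings of processing, fit and plate, and its smallest value in any alternative was -0.33. The call was lost for Dlx1 when any 1 of 8 arrays was left out, for Neurod4 when any 1 of 11 arrays was left out, for Crmp1 when any 1 of 10 arrays was left out and for Scg5 without E9.5 WT replicate 4, E8.5 KO replicate 2, E8.5 WT replicate 1 or E8.5 WT replicate 2. Calls of Crmp1 and Scg5 ended both with plate as a covariate and within plates (adjusted p = 0.0732 and 0.167 in the covariate fit), and within plates alone those of Elavl2 and Stmn3 did (adjusted p = 0.0645 and 0.0717). The neuronal median was 0.098 with the authors' processed values.

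Larger values without a shared role came from further vanished genes that were higher in KO at E8.5. Myl1, a myosin light chain of striated muscle, had log2 signals of 5.74, 6.77, 5.94 and 6.14 in E9.5 KO embryos and 6.64, 6.93, 7.16 and 7.02 in E9.5 WT embryos, and of 7.08, 7.85 and 7.07 in E8.5 KO embryos and 5.27, 5.14 and 5.29 in E8.5 WT embryos. KO was at least 3-fold higher at E8.5, where 0 of 3 WT arrays were above background, and the interaction was -2.88 (SE 0.64, adjusted p = 0.0115). Myl1 was the only one of 23 cardiac and striated muscle genes to pass, and the mean of that list was 5.80 to 5.96 on E9.5 KO arrays and 5.93 to 6.23 on E9.5 WT arrays, and 6.29 to 6.90 on E8.5 KO arrays and 6.2 to 7.33 on E8.5 WT arrays. The histone gene H2bc8, whose near-identical copies the probe may not separate, was 3.76-fold higher in KO at E8.5 with KO minus WT of -1.06 (adjusted p = 0.0967) at E9.5, with an interaction of -2.97 (SE 0.50, adjusted p = 0.0029). Rpl22l1, a paralogue of a ribosomal protein, was at -2.41 (adjusted p = 0.019), the phosphodiesterase Smpdl3a at -2.23 (adjusted p = 0.00754), Srp19, a subunit of the signal recognition particle, at -2.07 (adjusted p = 0.00367), and the kinetochore gene Cenpk at -2.02 (adjusted p = 0.0118). Srp19 narrowly missed the turned class. Its KO minus WT was -0.91 at E9.5 (adjusted p = 0.0504) and 1.16 at E8.5, without overlap at either stage. At E8.5 Smpdl3a was above background on 3 of 3 KO and 0 of 3 WT arrays (at least 2.59-fold higher in KO), and H2bc8 and Rpl22l1 on 1 of 3 WT arrays each. In both plate settings the calls of Myl1, Rpl22l1 (at -1.52), Smpdl3a and Cenpk (at -1.28) ended (adjusted p = 0.0592 to 0.201 in the covariate fit), with plate as a covariate alone that of H2bc8 did (adjusted p = 0.0556), and within plates alone that of Srp19 did (adjusted p = 0.0555). No call remained for Rpl22l1 without E8.5 KO replicate 2 or E8.5 WT replicate 1.

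The KO effect turned, passing at both stages with opposite signs, in 14 genes. KO and WT arrays overlapped at neither stage in the 8 with the largest interaction. The same arrays chose these genes, so neither this separation nor calls kept with 1 array left out are independent support. Aldh1a7, an aldehyde dehydrogenase, had log2 signals of 6.10, 6.05, 5.97 and 5.72 in E9.5 KO embryos and 6.54, 6.75, 6.91 and 7.47 in E9.5 WT embryos, and of 5.76, 6.12 and 5.47 in E8.5 KO embryos and 4.70, 4.73 and 4.75 in E8.5 WT embryos. It was 1.94-fold lower in KO at E9.5 and at least 1.03-fold higher at E8.5, where 1 of 3 KO and 0 of 3 WT arrays were above background, and the interaction was -2.02 (SE 0.25, adjusted p = 0.00075). Hapln1, which links hyaluronan to proteoglycans in the extracellular matrix, had log2 signals of 8.35, 8.44, 8.26 and 8.40 in E9.5 KO embryos and 9.27, 8.92, 9.32 and 9.5 in E9.5 WT embryos, and of 8.10, 8.23 and 8.45 in E8.5 KO embryos and 7.40, 7.65 and 7.54 in E8.5 WT embryos. KO was 1.85-fold lower at E9.5 and 1.66-fold higher at E8.5, and the interaction was -1.62 (SE 0.25, adjusted p = 0.00187). In KO tissue the difference of Hapln1 was 0.10 between the stages (adjusted p = 0.69), against 1.72 in WT tissue (adjusted p = 4.56e-07). Uqcrb, a subunit of respiratory complex III, had log2 signals of 11.21, 11.50, 10.95 and 11.52 in E9.5 KO embryos and 11.67, 11.79, 11.82 and 11.95 in E9.5 WT embryos, and of 10.55, 10.47 and 10.82 in E8.5 KO embryos and 9.58, 9.84 and 9.85 in E8.5 WT embryos. KO was 1.43-fold lower at E9.5 and 1.81-fold higher at E8.5, with an interaction of -1.37 (SE 0.20, adjusted p = 0.00119). The zinc finger gene Zfp873 (-1.42, adjusted p = 0.0029) and Zfyve16, an endosomal protein (-1.41, adjusted p = 0.00119), had the same order.

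The opposite order, higher in KO at E9.5 and lower at E8.5, was led by Vstm2b, an immunoglobulin domain protein, with log2 signals of 9.75, 9.45, 9.08 and 9.54 in E9.5 KO embryos and 8.59, 8.76, 8.55 and 8.31 in E9.5 WT embryos, and of 9.97, 9.90 and 9.93 in E8.5 KO embryos and 10.54, 10.52 and 10.76 in E8.5 WT embryos. KO was 1.87-fold higher at E9.5 and 1.6-fold lower at E8.5, with an interaction of 1.58 (SE 0.22, adjusted p = 0.00119). Dusp4, a phosphatase that limits MAP kinase signalling downstream of FGF, had log2 signals of 8.75, 8.59, 8.91 and 8.44 in E9.5 KO embryos and 8.19, 7.86, 7.66 and 7.59 in E9.5 WT embryos, and of 9.16, 9.27 and 9.5 in E8.5 KO embryos and 10.07, 9.61 and 10.26 in E8.5 WT embryos. It was 1.8-fold higher in KO at E9.5 and 1.59-fold lower at E8.5 (interaction 1.52, SE 0.26, adjusted p = 0.0029). Of its other probes, that detected on 14 arrays gave 0.99 and passed. That detected on 0 of the 14 gave 0.56 and did not. Chst3, which sulphates chondroitin, was at 1.36 (adjusted p = 0.00384), with 1.34 on a second probe. All 14 turned genes kept the sign and the call of their interaction on leaving out any 1 array. Whether KO minus WT again passed at both stages was not counted. Fewer of the 14 kept the call in the plate settings, which take the E8.5 KO effect from KO replicate 1 alone.

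Among the genes with an interaction, 1 passed at both stages with the same sign. It was the growth factor gene Fgf15, whose transcript is a reported target of miR-302. Its log2 signals were 10.93, 10.79, 10.56 and 10.28 in E9.5 KO embryos and 8.77, 8.73, 8.44 and 8.12 in E9.5 WT embryos, and 10.26, 10.04 and 10.44 in E8.5 KO embryos and 9.34, 9.37 and 9.27 in E8.5 WT embryos. KO lay above WT without overlap at both stages. The difference was 4.37-fold at E9.5 and 1.89-fold at E8.5, and the interaction was 1.21 (SE 0.29, adjusted p = 0.0166). The change of Fgf15 between the stages was 0.40 in KO tissue (adjusted p = 0.146) and -0.81 in WT tissue (adjusted p = 0.00353). With plate as a covariate, within plates and without E8.5 KO replicate 2 the interaction lost its call (adjusted p = 0.0893 and 0.114 in the plate settings), at a value of 1.19 in both plate settings.

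Of 21 reported targets of miR-302 or of microRNAs with its seed, Fgf15, Arid4b and Kdm1a, a histone demethylase, had a positive interaction and 0 a negative one (3 with an unadjusted p under 0.05, limma), and 11 of 21 values were negative (median -0.01). Kdm1a was at 0.74 (adjusted p = 0.0231). The call ended for Kdm1a without E9.5 WT replicate 4, E8.5 KO replicate 2 or E8.5 WT replicate 1. The call of Kdm1a ended both with plate as a covariate and within plates (adjusted p = 0.0732 in the covariate fit). Cdkn1a, whose product p21 halts the cell cycle, had log2 signals of 8.02, 8.15, 8.51 and 8.0 in E9.5 KO embryos and 8.04, 7.31, 7.19 and 7.35 in E9.5 WT embryos, and of 7.54, 7.90 and 7.84 in E8.5 KO embryos and 6.12, 6.63 and 6.2 in E8.5 WT embryos. KO was 2.72-fold higher at E8.5 without overlap and 1.62-fold higher at E9.5 with overlap (adjusted p = 0.0781), and the interaction of -0.74 (SE 0.31, adjusted p = 0.131) did not pass. The 2 other Cdkn1a probes gave smaller values of KO minus WT, 0.56 and 0.82 at E8.5 and 0.47 and 0.42 at E9.5. Their interactions were -0.10 and -0.40. Lin28a was at 0.36 (adjusted p = 0.601). Of 22 p53 targets, Ccng1 passed with a negative value and 0 with a positive one in limma (4 with an unadjusted p under 0.05). Phlda3 was at -1.07 (adjusted p = 0.125) and the stress gene Ddit4 at 2.32 (adjusted p = 0.056). The list held both signs, with a median of -0.04.

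For Wnt7a and for the brightest probe of Neurog2, both higher in KO at both stages, no difference between the KO effects was detected. Wnt7a, a Wnt ligand of the dorsal and anterior neural tube, had log2 signals of 8.14, 8.69, 8.07 and 8.91 in E9.5 KO embryos and 6.94, 7.0, 6.94 and 6.37 in E9.5 WT embryos, and of 7.25, 7.06 and 6.72 in E8.5 KO embryos and 4.89, 4.87 and 4.86 in E8.5 WT embryos. KO was 3.12-fold higher at E9.5 and at least 2.41-fold higher at E8.5, with an interaction of -0.50 (SE 0.35, adjusted p = 0.384). Neurog2, a proneural transcription factor, was 2.71-fold higher in KO at E9.5 and 2.85-fold higher at E8.5, where 2 of 3 WT arrays were above background, with an interaction of -0.07 (SE 0.36, adjusted p = 0.932). A second Neurog2 probe, above background on 7 arrays, gave a KO minus WT of -0.12 at E9.5 and 0.48 at E8.5, with an interaction of -0.59, so the direction for Neurog2 at E9.5 rests on 1 probe. The signs of both interactions turned with the authors' processed values, which gave 0.50 (adjusted p = 0.0405) for Wnt7a and 0.45 (adjusted p = 0.019) for Neurog2, past the threshold in that setting. Sox1, a marker of neural ectoderm, was at 0.75 (adjusted p = 0.282) and the neuronal tubulin Tubb3 at 0.03 (adjusted p = 0.977), each near background.

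By group, interactions of glycolysis and hypoxia genes were nearly all positive. Of 27 genes tested 26 were positive, against 5448 of all 10261, with a median of 0.54. The medians of KO minus WT were 0.38 at E9.5 and -0.28 at E8.5. With a positive interaction 4 passed, and with a negative one 0 (0 also at an unadjusted p under 0.05, limma). The shares over all genes were 4.33% and 5.79%. Hk2, the hexokinase that starts glycolysis, had log2 signals of 12.57, 12.49, 13.17 and 12.18 in E9.5 KO embryos and 11.89, 11.93, 11.83 and 11.29 in E9.5 WT embryos, and of 12.46, 12.55 and 12.68 in E8.5 KO embryos and 13.21, 13.17 and 13.19 in E8.5 WT embryos. KO lay above WT at E9.5 and below it at E8.5, without overlap, and the interaction was 1.49 (SE 0.26, adjusted p = 0.0037). The phosphofructokinase Pfkp had log2 signals of 6.74, 6.76, 9.85 and 6.98 in E9.5 KO embryos and 6.96, 7.06, 6.74 and 6.67 in E9.5 WT embryos, and of 6.0, 5.63 and 6.2 in E8.5 KO embryos and 8.57, 7.27 and 7.76 in E8.5 WT embryos. E9.5 KO replicate 3, at 9.85, stood far above the other KO arrays, and the interaction was 2.64 (SE 0.73, adjusted p = 0.0302) and 1.89 without that array (adjusted p = 0.0106); a second probe gave 1.43 and did not pass. Slc2a1, the main glucose transporter, was at 0.89 (adjusted p = 0.0287) and the aldolase Aldoc at 1.42 (adjusted p = 0.035). In 15 settings of processing, fit and plate, the call held in 15 for Hk2, 12 for Slc2a1, 9 for Aldoc and 8 for Pfkp. Aldoa (0.70, adjusted p = 0.0547), Pfkl (0.90, adjusted p = 0.055) and Pgam1 (0.72, adjusted p = 0.0608) did not pass. The mean of the list was 10 to 11.06 on E9.5 KO arrays and 9.78 to 10 on E9.5 WT arrays, and 9.91 to 10.09 on E8.5 KO arrays and 10.19 to 10.46 on E8.5 WT arrays. KO replicate 3 held the highest E9.5 mean, and without it the median of the list was 0.33 and 4 genes passed. With plate as a covariate and within plates 2 genes passed, Hk2 and Slc2a1, and without E8.5 KO replicates 1 and 2, E8.5 WT replicates 1 and 3 and E9.5 WT replicates 3 and 4 between 1 and 2 did. The call did not hold for Pfkp without E9.5 WT replicate 3, E9.5 WT replicate 4, E8.5 KO replicate 2 or E8.5 WT replicate 1, for Slc2a1 without E9.5 WT replicate 4, E8.5 KO replicate 1, E8.5 WT replicate 1 or E8.5 WT replicate 3 and for Aldoc when any 1 of 8 arrays was left out.

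Subunits of the respiratory chain and of ATP synthase lay on the other side. This family and the mitochondrial ribosomal one were gathered by gene symbol after Cox7b, Uqcrb and Dld had been seen among the largest values, so their counts describe and test nothing. Of 73 subunits tested 52 had negative interactions, against 4813 of all 10261 genes, with a median of -0.39. In limma 19 passed with a negative value and 0 with a positive one (0 also at an unadjusted p under 0.05). Of all genes 5.79% passed with a negative value and 4.33% with a positive one. Cox7b, a subunit of cytochrome c oxidase, had log2 signals of 7.74, 8.30, 7.20 and 7.68 in E9.5 KO embryos and 7.94, 8.44, 8.5 and 8.79 in E9.5 WT embryos, and of 6.76, 7.78 and 6.93 in E8.5 KO embryos and 5.35, 5.92 and 5.70 in E8.5 WT embryos. It was 2.83-fold higher in KO at E8.5, where 1 of 3 WT arrays was above background, with KO minus WT of -0.69 (adjusted p = 0.119) at E9.5, with an interaction of -2.19 (SE 0.36, adjusted p = 0.00261). The complex I subunits Ndufs4 (-0.92, adjusted p = 0.00187) and Ndufb4 (-1.54, adjusted p = 0.0186), the oxidase subunit Cox7a2 (-1.78, adjusted p = 0.0114) and the ATP synthase subunit Atp5l (-0.90, adjusted p = 0.00586) passed as well. The family's mean log2 signal was 11.72 to 11.86 on E9.5 KO arrays and 11.86 to 12.00 on E9.5 WT arrays, and 11.66 to 11.79 on E8.5 KO arrays and 11.39 to 11.41 on E8.5 WT arrays. All E9.5 KO arrays were at or below all E9.5 WT arrays, and all E8.5 KO arrays were above all E8.5 WT arrays. At E9.5 0 subunits rose and 1 fell in KO, and at E8.5 15 rose and 0 fell. Over all genes 1.56% rose and 0.711% fell at E9.5, and 3.18% rose and 2.42% fell at E8.5. Of 71 mitochondrial ribosomal proteins 54 were negative and 19 passed, all negative (median -0.32), and Dld, a subunit shared by the mitochondrial dehydrogenase complexes, was at -2.04 (adjusted p = 0.0082). At E8.5 Dld was above background on 2 of 3 KO and 0 of 3 WT arrays, and with plate as a covariate its interaction was -1.27 and lost its call (adjusted p = 0.111, and 0.14 within plates). With plate as a covariate 6 of the 73 and 4 of the 71 passed, and within plates 3 and 1 did, with medians of -0.35 and -0.30. Without E8.5 KO replicate 2 or E8.5 WT replicate 1, 14 and 12 of the 73 and 11 and 11 of the 71 passed.

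**Figure D4:**
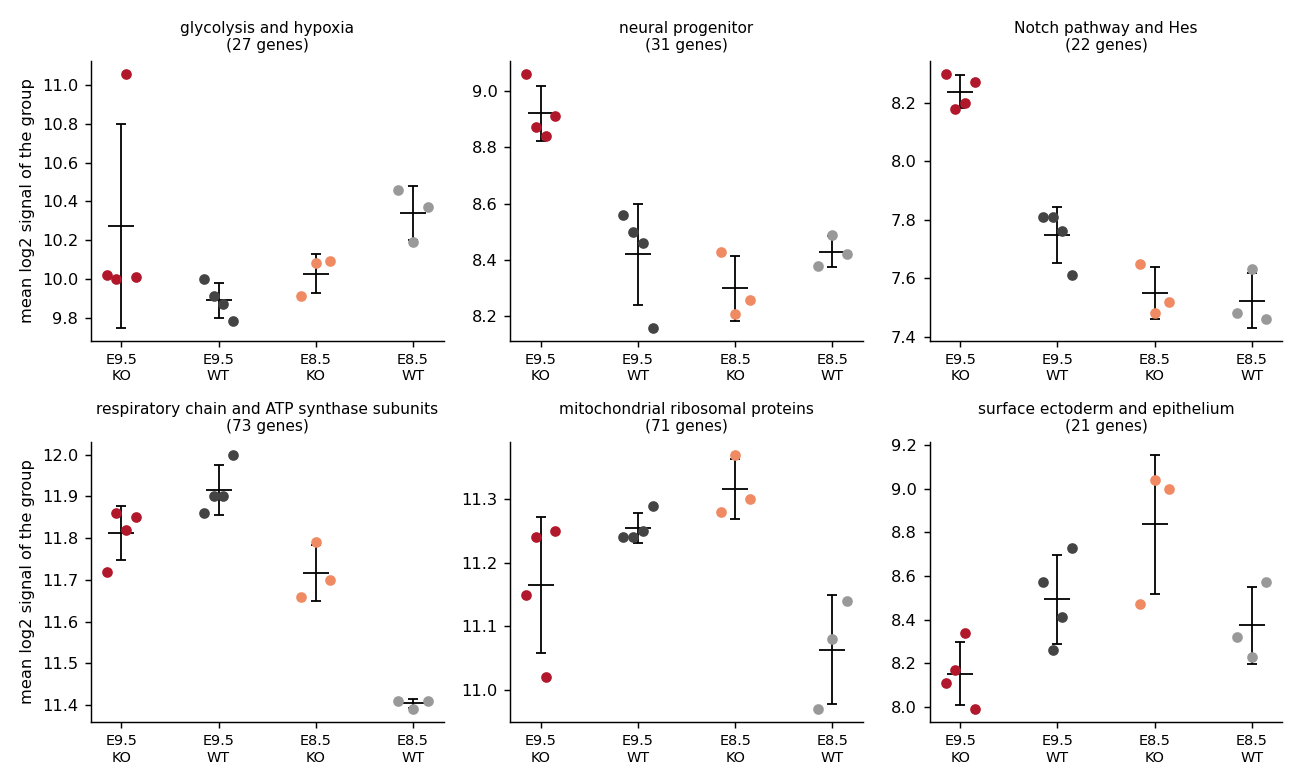
Mean log2 signal (vertical axes) of 6 gene groups on each array in E9.5 KO, E9.5 WT, E8.5 KO and E8.5 WT embryos (left to right), 1 point an array, with the mean (bar) and SD (whiskers) over arrays. Respiratory chain genes are lower in KO at E9.5 and higher at E8.5. Mitochondrial ribosomal genes are higher in KO at E8.5, while their KO and WT arrays overlap at E9.5. Glycolysis genes are higher in KO at E9.5 and lower at E8.5, with E9.5 KO replicate 3 highest at 11.06.

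For markers of surface ectoderm, the epithelium that adjoins the neural plate, most interactions were negative. Of 21 genes tested 20 were negative, against 4813 of all 10261, with a median of -0.86, and 6 passed as negative, against 5.79% of all genes. Among these were Cdh1, the epithelial cadherin, at -0.86 (adjusted p = 0.0397), the keratin Krt18 at -0.86 (adjusted p = 0.0423), the ligand Wnt6 at -0.86 (adjusted p = 0.045), Ap1m2, an epithelial sorting adaptor, at -1.08 (adjusted p = 0.0246), and the protease Prss8 at -0.87 (adjusted p = 0.033). Cldn6, a tight junction protein that is also in the endoderm list, was at -0.77 (adjusted p = 0.0404). The list's mean log2 signal was 7.99 to 8.34 on E9.5 KO arrays and 8.26 to 8.73 on E9.5 WT arrays, and 8.47 to 9.04 on E8.5 KO arrays and 8.23 to 8.57 on E8.5 WT arrays. KO and WT ranges overlapped at both stages. With plate as a covariate and within plates 0 of the 21 passed in limma (4 and 1 with an unadjusted p under 0.05), and the median was -0.47. Without E8.5 KO replicate 2, E8.5 WT replicate 2 or E9.5 WT replicate 4, 0 passed (10 to 11 with an unadjusted p under 0.05). Without E8.5 KO replicate 3, E8.5 WT replicate 1 or E9.5 KO replicate 4, 1 did, and without E9.5 KO replicates 1 or 3 or E9.5 WT replicate 3, 2 did. Without E8.5 KO replicate 1, 10 did. These genes are surface ectoderm markers measured in tissue labelled neural, and their part in the other results was not tested.

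The other lists of cell types the dissection could hold had between 0 and 1 passing genes in either direction. Endothelial genes had a median of 0.31, which was 0.083 with the authors' processed values and 0.21 without E9.5 KO replicate 3. That array stood apart from the other E9.5 KO arrays in mean log2 signal, at 8.88 against 8.33 to 8.40 for the endothelial list and at 8.42 against 7.89 to 7.96 for neural crest and head mesenchyme, as it did for glycolysis. Its part in the glycolysis and endothelial values beyond leaving it out was not tested. Primitive erythroid and platelet genes had a median of -0.33, with 15 of 18 values negative and 0 passing in limma (3 with an unadjusted p under 0.05). The erythroid mean was 8.58 to 8.93 on E9.5 KO arrays and 8.98 to 9.37 on E9.5 WT arrays, and 7.44 to 7.98 on E8.5 KO arrays and 7.02 to 8.09 on E8.5 WT arrays, without overlap between KO and WT at E9.5. Leaving out 1 array gave erythroid medians between -0.62 (without E8.5 WT replicate 2) and 0.014 (without E8.5 WT replicate 3), where the sign turned. Cardiac, endoderm and trophoblast lists had medians between 0.04 and 0.11, neural crest and head mesenchyme one of -0.07 with 0 passing (2 with an unadjusted p under 0.05), pluripotency genes one of 0.29 with Foxd4 passing, and caudal progenitor genes one of 0.11 with Dll1 passing. The pluripotency median was 0.07 with the authors' processed values. The medians of the cardiac, endoderm, trophoblast, neural crest and caudal lists were each of the opposite sign in at least 1 alternative. The part of these cell types in the neural results was not tested.

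Wnt pathway members moved both ways. Of 38 tested, 5 had a positive and 3 a negative interaction (median 0.22). For this list and the FGF, BMP and cell cycle lists, the shares over all genes were 4.33% positive and 5.79% negative, 10.1% in either direction. Ligands and agonists were split, with Wnt1 positive and Wnt6, Rspo3 and Rspo2 (-1.28, adjusted p = 0.0243) negative. Rspo2 was above background on 2 of 3 KO and 0 of 3 WT arrays at E8.5. Among receptors and modulators Fzd7 and Dact2 were positive. The Wnt targets Axin2 (0.81, adjusted p = 0.0253) and Sp5 (1.09, adjusted p = 0.0149) were positive too. Of 26 FGF pathway genes Dusp4 and Fgf15 passed, both positive. Of 26 BMP and TGF-beta genes Fst and Id4 were positive and Bmper, a BMP-binding protein, was negative (-1.20, adjusted p = 0.033). Of 35 cell cycle and replication genes, E2f1, Cdt1 (0.87, adjusted p = 0.0251) and Mcm4 (0.45, adjusted p = 0.0391) were positive and Ccna2 (-0.73, adjusted p = 0.0292) and Rrm1 (-0.58, adjusted p = 0.0498) negative, with a median of 0.14. Ccna2 was above background on 0 of 6 arrays at E8.5, so its value is a fitted one with no measured KO effect at that stage. The 2 other Mcm4 probes gave 1.37 and 1.34 and did not pass. The call was lost for Rspo2 when any 1 of 5 arrays was left out, for Wnt6 when any 1 of 9 arrays was left out, for Axin2 when any 1 of 5 arrays was left out, for Bmper when any 1 of 8 arrays was left out, for Cdt1 without E9.5 KO replicate 3, E9.5 WT replicate 4, E8.5 KO replicate 2 or E8.5 WT replicate 1, for Mcm4 when any 1 of 10 arrays was left out, for Ccna2 when any 1 of 6 arrays was left out and for Rrm1 when any 1 of 13 arrays was left out. In both plate settings the calls of Wnt6, Sp5, Bmper (at -0.57), Cdt1, Mcm4, Ccna2 and Rrm1 ended (adjusted p = 0.0706 to 0.302 in the covariate fit), and within plates alone that of Axin2 did (adjusted p = 0.0924). For Bmper the adjusted p was 0.0532 with plate as a random block. The Wnt median was 0.044 with the authors' processed values.

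**Figure D5:**
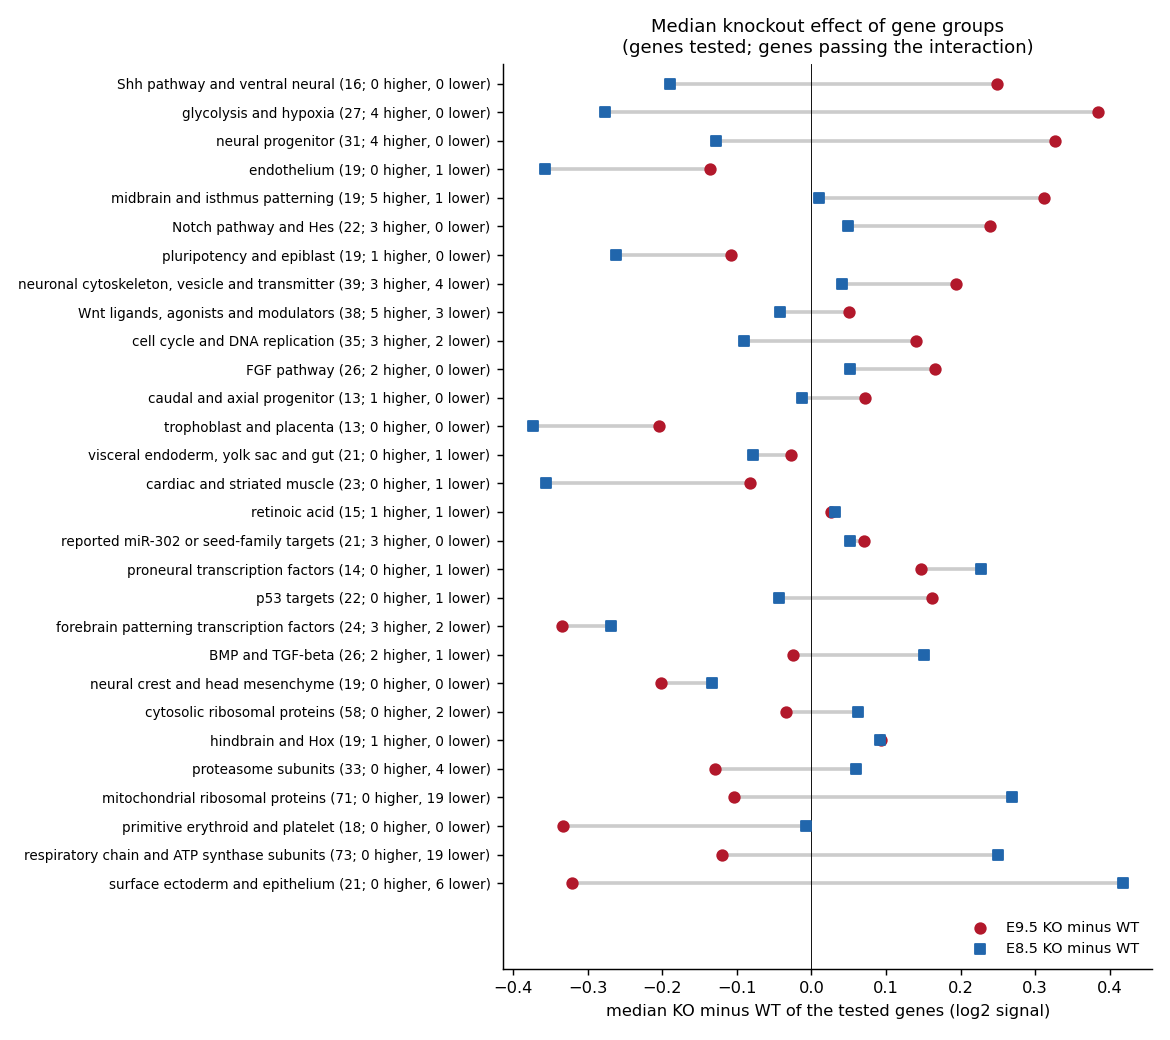
Median KO minus WT (horizontal axis, log2 signal) of the tested genes of 29 gene groups at E9.5 (circles) and at E8.5 (squares), ordered from top to bottom by the median interaction, with the number of genes tested and of genes passing the interaction in each direction beside the name. Glycolysis, progenitor and Shh groups have medians above 0 at E9.5 and below 0 at E8.5; surface ectoderm, respiratory chain and mitochondrial ribosomal groups have the opposite order.

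The largest class, 538 genes, passed at neither stage, and in all of them KO minus WT had opposite signs at the 2 stages. The definition of the class all but sets this. Effects of the same sign would make the interaction smaller than the larger of them. After Sox2 the largest was Eef2, the translation elongation factor, with log2 signals of 11.88, 11.77, 12.53 and 12.26 in E9.5 KO embryos and 11.59, 11.61, 11.35 and 11.04 in E9.5 WT embryos, and of 11.73, 11 and 11.03 in E8.5 KO embryos and 12.57, 12.18 and 12.42 in E8.5 WT embryos. KO lay above WT at E9.5 and below it at E8.5 without overlap, and the interaction was 1.85 (SE 0.51, adjusted p = 0.0296). In the other direction were Lrtm1 (-1.82, adjusted p = 0.0243), Tceanc2 (-1.77, adjusted p = 0.045), the neutrophil oxidase subunit Ncf4 (-1.74, adjusted p = 0.0213) and Nr2e1. At E8.5 Ncf4 was above background on 2 of 3 KO and 0 of 3 WT arrays. The second probes of Tceanc2 (-0.67) and of Lrtm1 (-2.48) did not pass. Of the other Eef2 probes, that at 1.72 passed and that at 1.74 did not. No call remained for Eef2 when any 1 of 8 arrays was left out, for Lrtm1 without E9.5 KO replicate 3, E9.5 WT replicate 4, E8.5 KO replicate 1 or E8.5 WT replicate 1, for Tceanc2 when any 1 of 12 arrays was left out and for Ncf4 without E9.5 WT replicate 4, E8.5 KO replicate 2, E8.5 WT replicate 1 or E8.5 WT replicate 3. Calls of Eef2 and Tceanc2 ended both with plate as a covariate and within plates (adjusted p = 0.0802 and 0.111 in the covariate fit), and within plates alone those of Lrtm1 and Ncf4 did (adjusted p = 0.0506 and 0.0596). Of these 538 genes 46 passed again with plate as a covariate and 13 within plates, against 36 and 16 of the 112 appeared genes and 88 and 37 of the 373 vanished ones.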

How the data were processed

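The authors deposited one table for Illumina MouseRef-8 v2.0 BeadChips with 2 columns for each of 25 arrays, a mean probe signal and its detection p-value, and a matrix of processed values. The deposited signals are intensities on a linear scale, taken as not normalized because their medians differ between arrays. The detection p-values, per the file headers, come beside each signal, in steps of 1 in 798, and the background was estimated from them. Per the labels' protocols, RNA was extracted with Trizol and a miRNeasy kit and amplified to biotin-labelled cRNA. No genome build is named there.

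Signals of 25697 probes were corrected by normexp with an offset of 16, quantile normalized and put on the log2 scale (neqc, limma 3.58.1 in R 4.3.3). Probes with a detection p under 0.05 on at least 3 of 25 arrays were kept (15030), and the brightest kept probe stood for a gene, which left 10261 genes, of which 2752 had several kept probes. Of all probes, 23978 had 1 gene symbol and 1719 none in the platform annotation, none had several, and 885 kept probes had none. Of the Entrez identifiers 23962 matched RefSeq GRCm38.p6.

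A linear model over 25 arrays in 9 groups, with 16 residual degrees of freedom, gave each contrast by limma with Benjamini-Hochberg adjustment over all 10261 genes, two-sided. Groups came from the labels. A fold for a group with no array above background is a bound, "at least", against the higher of the lowest signal above background and the gene's own, averaged over arrays. Named were the 10 largest interactions in each direction, the largest of each class, passing genes of the lists, and a few further genes, by a rule written together with the lists. The members and lists were chosen with earlier results of these data known, and 4 symbol families after values were seen. The fit was checked on simulated data. The number of arrays limits the precision. Array columns of 3 E8.0 WT samples, which enter only through the shared spread, disagreed between both deposited tables.

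Deviations of same-numbered KO and WT arrays had correlations of -0.04 to 0.09. With 3 or 4 arrays in a group this cannot decide whether replicate numbers paired embryos. The main fit used no pairing. Alternatives were other background, normalization, filter, probe, fit and plate settings, a replicate block and leaving out each array.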

Additional observations from a re-analysis of the deposited data

Results flagged for a closer look

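In the 182 groups of 4 arrays of the named genes, 10 held an array whose gap to its nearest neighbour was large against the whole range of the group (Dixon's limit, which chance passes in about 1 in 20 groups). Pfkp was at 9.85 on E9.5 KO replicate 3, against 6.98 on the nearest KO array. The same array was lowest for Hes3 (5.83, nearest 7.15) and Scg5 (7.56, nearest 7.77) and highest for Rara (6.27, nearest 5.36). E9.5 WT replicate 4 was lowest for Crmp1 (7.98, nearest 8.87), Hk2 (11.29, nearest 11.83) and Wnt7a (6.37, nearest 6.94). Cenpk stood apart on KO replicate 2 (10.28, nearest 9.42) and WT replicate 2 (9.95, nearest 10.38) at E9.5, and Irx2 on E9.5 KO replicate 1 (11.09, nearest 10.84). All values are log2 signals.

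The KO effect differed between E9.5 and E8.5 by the test of the difference itself in 1038 genes. The 10 largest positive interactions were those of Foxd4 (3.64), En1 (2.81), Pfkp (2.64), Irx1 (2.45), Sema4f (2.44), Vstm2l (2.42), Hes3 (2.28), Dact2 (2.28), Hes5 (2.28) and Hmox1 (2.27). The 10 largest negative ones were those of Rspo3 (-3.19), H2bc8 (-2.97), Myl1 (-2.88), Stmn3 (-2.43), Rpl22l1 (-2.41), Smpdl3a (-2.23), Cox7b (-2.19), Srp19 (-2.07), Dld (-2.04) and Cenpk (-2.02).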

How the results depend on the processing

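All 1038 interactions kept their sign in the 29 alternatives where they were measured, except 1 when a gene's probes were averaged. Their number was 228 with plate as a covariate (116 positive, 112 negative), 87 within plates 2 and 4 (48 and 39) and 624 with a replicate block (261 and 363), of which 183, 72 and 545 were among the 1038, and 407 to 1303 on leaving out 1 array. It was 676 without E9.5 KO replicate 3, 663 without E9.5 WT replicate 3, 490 without E9.5 WT replicate 4, 434 without E8.5 KO replicate 2 and 407 without E8.5 WT replicate 1. The plate settings rest on 1 E8.5 KO array. Fewer samples and a removed effect of plate therefore cannot be told apart in these lower numbers. The number of genes with a KO effect at E9.5 was 379 without background correction (233 higher, 146 lower), 523 by cyclic loess (288 and 235), 666 with the authors' processed values (367 and 299), 863 with array weights per group (463 and 400), 383 with plate as a covariate (239 and 144), against 160 and 73 as reported, and 62 (without E9.5 WT replicate 4) to 490 (without E9.5 WT replicate 1, 229 and 261) on leaving out 1 array. At E8.5 it was 99 with plate as a covariate (44 and 55), 223 under the random plate block and 71 within plates (30 and 41), against 326 and 248 as reported, and 110 (without E8.5 WT replicate 1) to 729 (without E8.5 KO replicate 1) on leaving out 1 array. The change between stages with the authors' processed values, whose medians are 153 at E9.5 and 124 at E8.5, passed in 8615 genes for KO and 8394 for WT. For KO it passed in 1892 under the random plate block and 1778 within plates; leaving out 1 array gave 2734 to 3540 for KO and 3564 to 4374 for WT. The cause of these differences was not tested. The replicate block and the plate covariate gave no stage change. Of 83 named genes that passed, 16 passed in all 29 alternatives, 36 under the plate covariate, 71 under the random plate block and 20 within plates, and none reversed. In settings other than leaving out an array, Krt18, Arid4b and Ccna2 passed in 7 of 15, and Mcm4, Rrm1, Neurod4 and Pfkp in 8. Interactions near 0 reversed. Neurog2 was at 0.23 without background correction and by cyclic loess, 0.45 with the authors' values and 0.13 with an offset of 50 (-0.31 to 0.32 on leaving out 1 array), and Wnt7a at 0.20, 0.19, 0.50 and 0.024 in these 4. Tubb3 was at -0.043 by cyclic loess, -0.37 under the plate covariate and within plates and -0.088 under the random plate block (-0.37 to 0.23). Hba-x was at -0.17, -0.18, -0.18 and -0.19 in these settings (-0.30 to 0.56). Signals of genes above background on few arrays limit their values.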

Other observations

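Genes of the Shh pathway and of ventral neural identity had a median interaction of 0.89, with 13 of 16 values positive, against 5448 of all 10261. That median was 0.24 with the authors' processed values and 0.38 with plate as a covariate, where the glycolysis median was 0.77. In limma 0 passed after adjustment and 6 had an unadjusted p under 0.05. Foxa2, a factor of the floor plate, was at 1.74 (adjusted p = 0.073), Foxa1 at 1.54 (adjusted p = 0.111), Nkx2-9 at 1.04 (adjusted p = 0.0626) and Nkx6-1, a homeobox gene of ventral progenitors, at 1.87 (adjusted p = 0.0995). The mean log2 signal of the list was 7.62 to 7.77 on E9.5 KO arrays and 6.74 to 7.55 on E9.5 WT arrays, and 6.94 to 7.59 on E8.5 KO arrays and 7.03 to 7.72 on E8.5 WT arrays. Among the symbol families chosen after values were seen, 4 of 33 proteasome subunits and 2 of 58 cytosolic ribosomal proteins, Rpl22l1 and Rps3a1, passed, all negative. Over all genes 5.79% passed as negative. The embryonic globin Hba-x, a marker of primitive red cells, had log2 signals of 14.23, 13.76, 14.33 and 14.24 in E9.5 KO embryos and 14.32, 14.19, 14.20 and 14.01 in E9.5 WT embryos, and of 12.89, 12.04 and 13.13 in E8.5 KO embryos and 13.34, 13.23 and 11.67 in E8.5 WT embryos, and its interaction was 0.02 (adjusted p = 0.993). The turned genes not described above were Sdhaf4 (-1.24), Pigf (-1.23) and Ankrd49 (-1.11), lower in KO at E9.5, and Chst15 (1.15), Mtcl1 (1.06) and Eif1ad (0.96), higher in KO at E9.5.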
